A study of Mus musculus with 5 samples.

Results

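The genes described here drive DNA replication and mitosis. They are 44 of the 41388 genes counted in RNA of sorted brain microglia, the resident macrophages of the brain, and they were given by name as a set of cell cycle and DNA replication genes. By textbook role, 21 of them act at the entry into or during S phase and 23 act in G2 and mitosis. The study compared 2 control libraries with 3 libraries in which A20, the ubiquitin-editing brake on NF-kB signalling encoded by Tnfaip3, was deleted in microglia. All mice were C57Bl/6, 4 weeks old, and received 2 mg tamoxifen at postnatal days 14 and 16, so the controls were treated too. Controls had the genotype eYFP-A20fl/wt Cx3cr1-CreERT2/+ and are called partially deficient in the labels. They carried 1 floxed A20 allele and the tamoxifen-inducible Cre in the Cx3cr1 locus, which is active in microglia and in some other myeloid cells. The deletion group is labelled eYFP-A20Dmg and fully deficient, and its label does not spell out the alleles. Cells were freed with papain and sorted for the eYFP reporter. Nothing in the labels ties a library to its own animal, and a p-value therefore reflects only how far these samples spread, part of which may be technical.

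A cell that divides first licenses its replication origins with Cdc6, Cdt1 and the Mcm helicase, then copies its DNA in S phase with the Pcna clamp and a raised supply of nucleotides. It then builds a spindle under cyclin B, Cdk1 and the Aurora and Polo kinases, and separates its chromosomes once the anaphase-promoting complex is switched on. Many S-phase genes are switched on by E2F factors, and many mitotic genes by a later wave of B-Myb and Foxm1 activity. Microglia in the young brain divide slowly and can divide again when activated.

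Library totals ran from 9726334 to 15275199 counts, and 3 counts equalled 0.192 to 0.305 CPM (the read count scaled to a common effective library total). Values by library are given below in the order of control replicates 1 and 2 and then A20 deletion replicates 1, 2 and 3. A20 deletion replicates 2 and 3 stood apart from the rest. Mitochondrially encoded transcripts made up 4.63% and 3.56% of their counts against 0.847% to 1.19% in the other 3 libraries. Tested genes longer than their median length held 37.8% and 38.5% of counts in them against 44.9% to 47.9% in the others. Xist had 780 counts in the first control and 616 in the first deletion library, against 0 in the other 3, which held 1304 to 2257 counts of Y-linked genes. Tnfaip3 itself had 454 and 94.7 CPM (controls) and 294, 277 and 347 CPM (A20 deletion) (log2 fold change 0.16, SE 0.55, edgeR adjusted p = 0.881). Which exons are removed is not stated, and a count over the whole gene cannot test the label.

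Most of these genes were expressed at low levels, and 1 of them, the S-phase enzyme gene Tk1, rose by the test. Of the 44 genes 41 had enough counts to be tested. Tk1 was higher in the A20 deletion libraries and 0 were lower (edgeR quasi-likelihood test, adjusted p under 0.05). Among all 12240 genes tested 2.08% were called higher and 0.507% lower, 2.59% in all, and 1 call in 41 is close to that background. By unadjusted p under 0.05 the count was 11 of 41, against 21% of all genes tested. The median log2 fold change was 0.82 over the 41 tested members, 0.59 over the 19 tested S-phase members and 1.09 over the 22 tested mitotic members, beside 0.05 over all genes tested. The median over the members was 0.52 without A20 deletion replicate 3 and 0.54 with the replicate number as a block. The 3 untested genes were Cdc6, Chek1 and Ccnb1. The log2 fold change was above 0 for 39 of the 41 tested members and for 53.6% of all genes tested. Ccne2 and Rrm1 lay below 0. In bulk RNA a change in the number of dividing cells and a change in RNA per cell cannot be told apart.

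All 3 deletion libraries lay above both controls for 19 of the 41 tested members and 2 of the 3 untested ones, and 0 of the 44 lay below both. Of all genes tested 40.2% did not overlap, 21.7% above and 18.5% below. Without overlap and higher were 12 S-phase members (Ccne1, Cdc6, Cdt1, Mcm5, Mcm6, Gins2, Lig1, Tk1, Rrm2, Tyms, Uhrf1 and Hells) and 9 mitotic members (Ccnb1, Ccnb2, Cdk1, Aurkb, Plk1, Birc5, Ube2c, Tpx2 and Cenpe). A member with few counts could enter the test only through the group where it was higher, so these counts describe the members and do not test them.

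**Figure D1:**
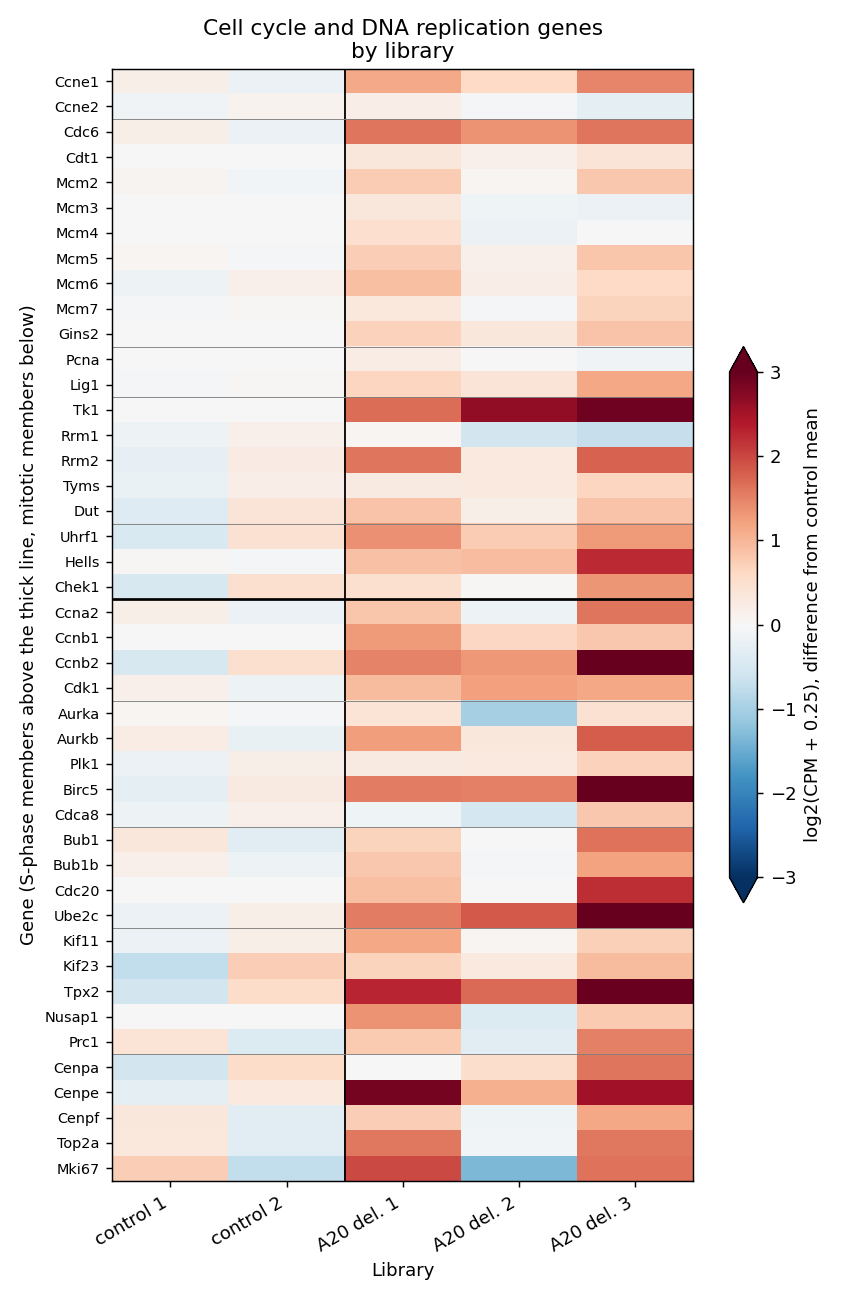
Difference of each library from the mean of both controls, on the log2(CPM + 0.25) scale, for all 44 members (rows, ordered by role) and 5 libraries (columns). Red is higher and blue lower than the control mean. A20 deletion replicates 1 and 3 are red in most rows. A20 deletion replicate 2 is pale or blue in most mitotic rows, except for genes such as Tpx2, Ube2c, Birc5 and Ccnb2.

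**Figure D2:**
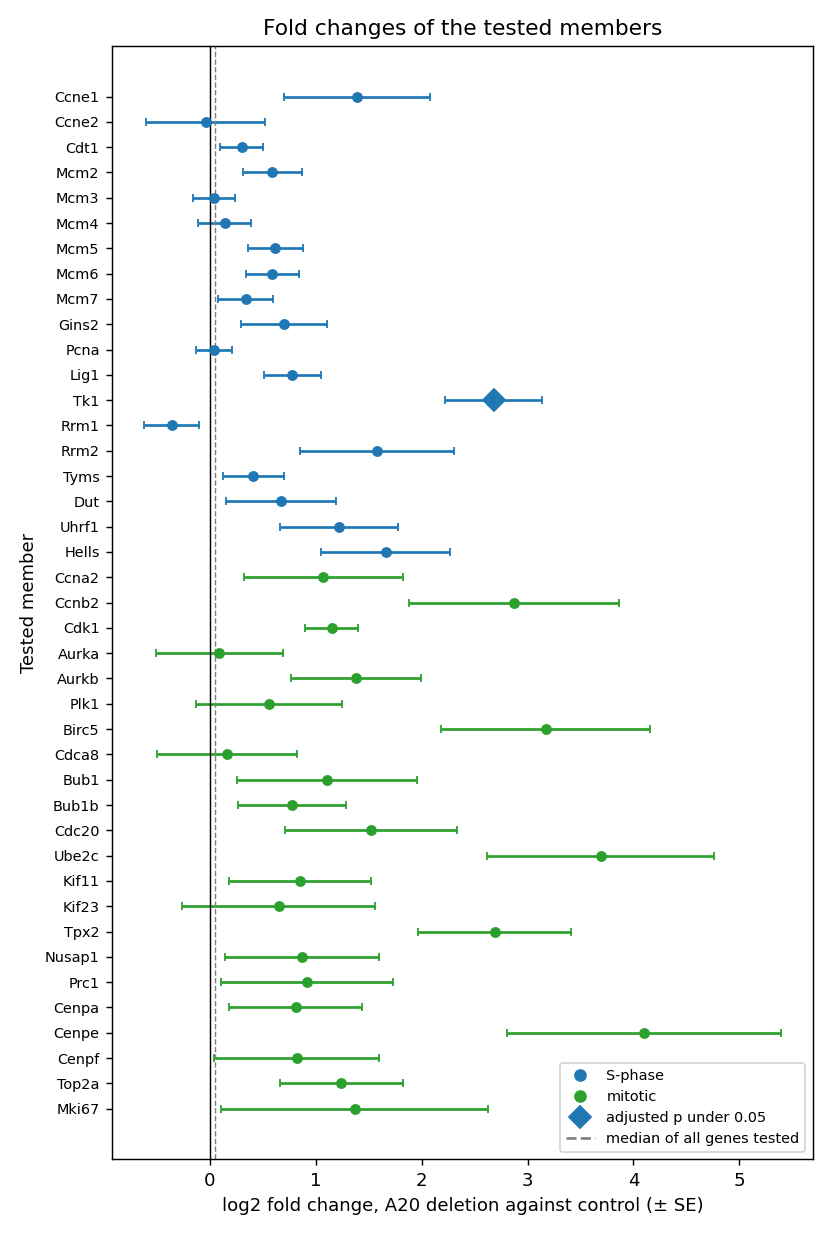
Fitted log2 fold change of A20 deletion against control (horizontal axis, bars are ± SE) for the 41 tested members, S-phase in blue and mitotic in green. The diamond marks Tk1, which passed the adjusted threshold, and the dashed line is the median of all genes tested at 0.05. The SE of the mitotic members with the largest fold changes exceeds that of most S-phase members.

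S-phase and mitotic members were compared library by library, first by their sums. The summed level of the 21 S-phase members was 258 and 272 CPM (controls) and 362, 269 and 323 CPM (A20 deletion). A20 deletion replicate 2 thus lay between the controls, replicates 1 and 3 lay above both, and the S-phase sum averaged 265 ± 9.53 CPM (SD, n = 2) in controls against 318 ± 46.5 CPM (SD, n = 3) after deletion. The 23 mitotic members summed to 27.7 and 26.4 CPM (controls) and 60.3, 37.3 and 94.3 CPM (A20 deletion). These sums are 2.23-fold, 1.38-fold and 3.49-fold the control mean. All 3 deletion libraries lay above both controls, but they differed from each other more than the lowest of them differed from the controls. Averaged by group, the mitotic sum was 27 ± 0.878 CPM (SD, n = 2) in controls against 64 ± 28.7 CPM (SD, n = 3) after deletion. The mitotic sums rest on 389 and 412 counts in the controls and 697, 475 and 927 in the deletion libraries. Their exact Poisson 95% intervals, which cover counting error only, were 25 to 30.5 and 23.9 to 29.1 CPM in the controls, and 55.9 to 65, 34 to 40.8 and 88.3 to 101 CPM in the deletion libraries. Per 100 CPM of S-phase members, mitotic members held 10.7 and 9.72 CPM in the controls and 16.7, 13.9 and 29.2 CPM in the deletion libraries. This ratio of reads is not corrected for exon length.

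**Figure D3:**
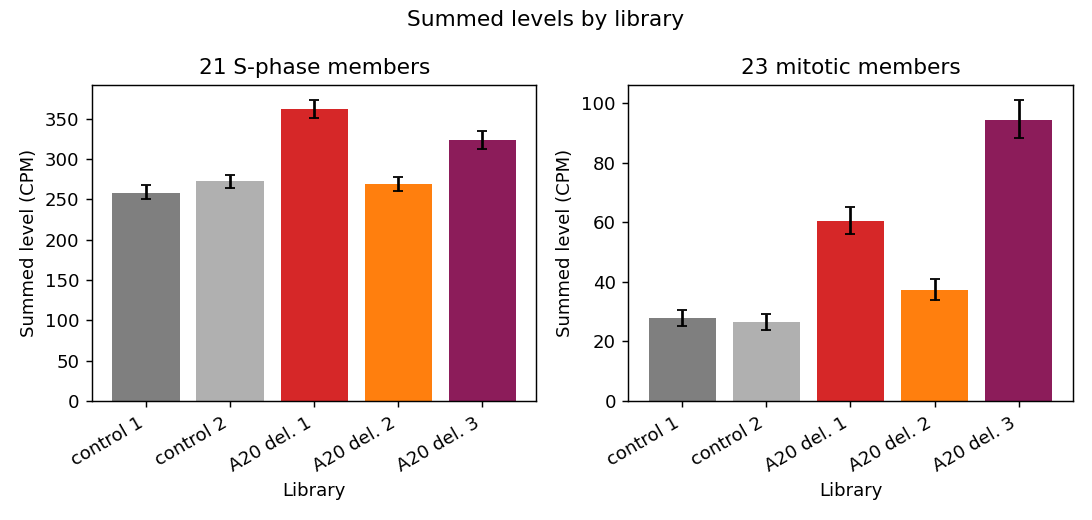
Summed CPM of the S-phase members (left) and mitotic members (right) in each library, with exact Poisson 95% intervals of the counts as error bars. The S-phase sum of A20 deletion replicate 2 (269 CPM) lies between the controls, while the mitotic sum is highest in A20 deletion replicate 3 (94.3 CPM).

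By the median over members, on the log2(CPM + 0.25) scale, both sets had the same order of deletion libraries. The median difference from the control mean in A20 deletion replicates 1, 2 and 3 was 0.70, 0.18 and 0.84 for S-phase members and 0.95, 0.05 and 1.59 for mitotic members. Whether the sets differ was not tested. A small number of abundant genes carried the S-phase sum. Mcm3, Pcna and Rrm1 gave 59.1% and 58.6% of it in the controls and 51.2%, 51.4% and 40.6% in A20 deletion replicates 1 to 3. With these 3 genes left out the S-phase sum was 106 and 113 CPM (controls) and 176, 131 and 192 CPM (A20 deletion), above both controls in all 3. Without Cdk1 the mitotic sum was 22 CPM in both controls and 50.5, 25.2 and 82.8 CPM across A20 deletion replicates 1 to 3.

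Promoter letters were compared between the S-phase and mitotic members. RefSeq promoter windows (GRCm38.p6, 250 bases before to 50 bases after a start site) were found for 38 members, in 43 windows. None was matched for Aurkb, Ccna2, Ccne2, Gins2, Mcm4 and Tpx2. The letters searched, on both strands, were TTTGAA and the related form TTCGAA (the cell cycle genes homology region, CHR), CCAAT (the NF-Y box) and an E2F core in any of 4 spellings, which were TTCCCGC with its relatives TTCGCGC, then with other middle letters TTGCCGC, and last the form TTGGCGC. On the opposite strand CCAAT reads as ATTGG, which can share bases with TTGGCGC. CHR letters were in the windows of 16 of 20 mitotic members and 2 of 18 S-phase members, against 19.2% of all 32851 windows. CCAAT was in those of 18 of 20 mitotic and 9 of 18 S-phase members, against 37.4% of all windows. CHR letters and a CCAAT shared a window in 16 of 20 mitotic and 2 of 18 S-phase members, against 7.52% of all windows. E2F core letters were in the windows of 12 of 18 S-phase members and 3 of 20 mitotic members, against 9.57% of all windows. A match of letters is not a binding site, and no match says only that these letters are absent from the window. The Tk1 window held none of the 3 motifs. For 7 of the 38 members every start used lies over 50 bases inside the RefSeq gene model (73 bases for Tk1). These are the S-phase members Cdc6, Dut, Hells, Mcm7 and Tk1 and the mitotic members Aurka and Mki67. Lig1 has a window at the start of its gene model, which holds no E2F core letters. It counts among the 12 of 18 only through windows whose starts lie 1651 and 2090 bases inside. The counts of motifs include all of these windows.

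The 250 bases before the start are shown for 3 mitotic members, Cdk1 (chr10:69352913-69353162, minus strand), Ube2c (chr2:164769679-164769928, plus strand) and Ccnb2 (chr9:70421555-70421804, minus strand), and for 2 S-phase members, Rrm2 (chr12:24708004-24708253, plus strand) and Mcm6 (chr1:128359706-128359955, minus strand). CHR letters are in the 3 mitotic windows only. E2F core letters are in the 2 S-phase windows and in Cdk1, which holds all 3 motifs. CCAAT letters are in every window shown and do not separate the sets. Rrm2 and Mcm6 hold E2F core and CCAAT letters and no CHR letters. Capitals mark every match that ends before the start, and each sequence reads 5′ to 3′ on the gene's strand.
Cdk1: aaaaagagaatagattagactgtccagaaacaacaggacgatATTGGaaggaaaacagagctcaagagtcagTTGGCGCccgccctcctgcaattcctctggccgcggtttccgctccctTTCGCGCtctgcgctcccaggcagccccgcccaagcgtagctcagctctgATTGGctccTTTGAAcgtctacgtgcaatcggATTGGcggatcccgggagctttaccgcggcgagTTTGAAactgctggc
Ube2c: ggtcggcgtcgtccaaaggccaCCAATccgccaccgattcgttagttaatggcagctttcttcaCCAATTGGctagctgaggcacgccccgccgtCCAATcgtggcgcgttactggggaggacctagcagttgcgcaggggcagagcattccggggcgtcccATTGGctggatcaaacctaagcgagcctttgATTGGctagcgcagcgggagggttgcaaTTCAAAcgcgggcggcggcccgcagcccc
Ccnb2: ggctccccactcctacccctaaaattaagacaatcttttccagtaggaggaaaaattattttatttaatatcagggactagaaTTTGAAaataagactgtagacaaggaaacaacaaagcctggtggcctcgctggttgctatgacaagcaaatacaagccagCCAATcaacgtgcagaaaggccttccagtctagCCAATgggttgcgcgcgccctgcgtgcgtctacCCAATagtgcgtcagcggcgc
Rrm2: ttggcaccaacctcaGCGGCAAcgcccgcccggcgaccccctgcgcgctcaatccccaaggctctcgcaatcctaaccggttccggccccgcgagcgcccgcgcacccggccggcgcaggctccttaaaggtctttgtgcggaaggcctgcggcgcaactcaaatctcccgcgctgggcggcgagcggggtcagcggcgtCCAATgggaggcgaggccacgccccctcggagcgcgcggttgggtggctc
Mcm6: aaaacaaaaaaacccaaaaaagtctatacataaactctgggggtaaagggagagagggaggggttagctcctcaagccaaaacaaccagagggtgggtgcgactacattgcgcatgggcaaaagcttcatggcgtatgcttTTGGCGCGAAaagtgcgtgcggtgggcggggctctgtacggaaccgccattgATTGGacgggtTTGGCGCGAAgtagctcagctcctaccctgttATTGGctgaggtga

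In Cdk1 the last CHR begins at position -15 and the nearest CCAAT at -48, counted back from the start. In Ube2c the CHR lies at -29 and the nearest CCAAT at -57. Ccnb2 has a CHR at -167, a CCAAT at -21 and a further CHR that lies after the start and is not shown. Rrm2 has its E2F core at -235 and its CCAAT at -50. In Mcm6 the E2F cores shown lie from -109 to -43, and 1 more lies after the start.

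Nucleotide supply held the gene that rose. Tk1 (ENSMUSG00000025574, GRCm38 chromosome 11, 117815526 to 117826092), thymidine kinase of the salvage pathway, stood at 1.49 and 1.47 CPM (controls) and 5.28, 10.6 and 12.9 CPM (A20 deletion). All 3 deletion libraries were higher, and replicates 2 and 3 were above replicate 1. The rise was 6.43-fold (1.48 ± 0.013 against 9.6 ± 3.91 CPM, SD, n = 2 and 3, log2 fold change 2.68, SE 0.46, edgeR adjusted p = 0.0343). The call was lost without A20 deletion replicate 2 (edgeR adjusted p = 0.0942) or A20 deletion replicate 3 (0.109), and with limma-voom (adjusted p = 0.106). Leaving out a control leaves a single control, so a lost call there says little about the gene. The log2 fold change was then 2.65 (without control replicate 1) and 2.62 (without control replicate 2). With both A20 deletion replicates 2 and 3 omitted, it was 1.84.

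The other nucleotide genes did not pass. Rrm2, the S-phase subunit of ribonucleotide reductase, stood at 0.569 and 0.897 CPM (controls) and 2.68, 0.942 and 3.05 CPM (A20 deletion) (log2 fold change 1.58, SE 0.73, edgeR adjusted p = 0.263). A20 deletion replicate 2 was barely above the higher control. Its large partner Rrm1 did not share this pattern. Rrm1 was at 30 and 37.1 CPM (controls) and 35.1, 22.6 and 20.7 CPM (A20 deletion), with replicates 2 and 3 below both controls (log2 fold change -0.36, SE 0.26, edgeR adjusted p = 0.445). Thymidylate synthase Tyms had a mean of 5.45 CPM in the controls and 7.26 CPM in the deletion group, and dUTPase Dut had 1.92 and 3.08 CPM.

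None of the origin licensing and helicase genes passed. Mcm3 had the highest level per exon length of all 44 (20.9 CPM per kb over all libraries) and Pcna came next with 19.1. Mcm3 stood at 78 and 76.5 CPM (controls) and 97.8, 71.1 and 68.6 CPM (A20 deletion) (log2 fold change 0.04, SE 0.20, edgeR adjusted p = 0.926). Replicate 1 lay above and replicates 2 and 3 below both controls. Mcm5 and Mcm6 had the smallest p of this group. Mcm6, a core subunit of the helicase ring, was at 17.1 and 21.4 CPM (controls) and 35.9, 22.2 and 29.1 CPM (A20 deletion) (log2 fold change 0.59, SE 0.25, edgeR adjusted p = 0.236). Mcm5 was at 12.9 and 11.8 CPM and at 20.7, 13.8 and 22.4 CPM (log2 fold change 0.62, SE 0.26, edgeR adjusted p = 0.233). In both genes A20 deletion replicate 2 lay closest to the controls. Subunits of the same ring thus had fitted log2 fold changes from 0.04 (Mcm3) to 0.62 (Mcm5), each with an SE of 0.20 to 0.28. The loader Cdc6 had 1 count in both controls together and 19 in the deletion libraries, a ratio of 16.5 between pooled counts (exact 95% interval 2.63 to 686, counting error only). The other licensing and helicase genes, Cdt1, Mcm2, Mcm4, Mcm7 and Gins2, had log2 fold changes from 0.14 (Mcm4) to 0.70 (Gins2).

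Among the remaining S-phase genes, DNA ligase Lig1 was at 10.2 and 10.7 CPM (controls) and 16.5, 13.7 and 23.6 CPM (A20 deletion) (log2 fold change 0.78, SE 0.27, edgeR adjusted p = 0.186). The sliding clamp Pcna did not separate the groups, with 44.6 and 45.4 CPM (controls) and 52.4, 44.5 and 41.8 CPM (A20 deletion) (log2 fold change 0.04, SE 0.17, edgeR adjusted p = 0.907). Hells, a chromatin remodeller that maintains DNA methylation, was at 1.28 and 1.22 CPM and at 2.51, 2.59 and 6.81 CPM (log2 fold change 1.66, SE 0.61, edgeR adjusted p = 0.199). Uhrf1, which brings Dnmt1 to newly copied DNA, was at 0.782 and 1.67 CPM and at 3.38, 2.12 and 3.15 CPM (edgeR adjusted p = 0.264). The cyclins that start S phase differed from each other in sign. Ccne1 had a log2 fold change of 1.39 (SE 0.69) and Ccne2 of -0.04 (SE 0.56), with edgeR adjusted p of 0.29 and 0.972. The untested checkpoint kinase gene Chek1 overlapped between the groups, at 0.142 and 0.513 CPM (controls) and 0.519, 0.314 and 1.12 CPM (A20 deletion).

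Mitotic members were scarcer, with a median control level of 0.836 CPM against 5.45 CPM for the S-phase members. None of the 22 tested passed. Cdk1, the kinase that drives entry into mitosis, came closest. It stood at 5.61 and 4.42 CPM (controls) and 9.87, 12.1 and 11.5 CPM (A20 deletion), so the groups did not overlap and the deletion libraries were close together. The ratio was 2.22 (log2 fold change 1.15, SE 0.25, edgeR adjusted p = 0.07). Of all mitotic members only Cdk1 was highest in A20 deletion replicate 2. Cdk1 had the highest level per exon length among the mitotic members, 1.76 CPM per kb. Cyclin B2, Ccnb2, was at 0.284 and 0.769 CPM (controls) and 1.82, 1.57 and 8.54 CPM (A20 deletion) (log2 fold change 2.87, SE 0.99, edgeR adjusted p = 0.179). A20 deletion replicate 3 lay far above the other 2 in this gene. Its relative Ccnb1 had 2 counts in both controls together, and the ratio of pooled counts was 5.22 (exact 95% interval 1.16 to 48, counting error only).

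Genes of the anaphase-promoting complex and the chromosomal passenger complex also lay highest in A20 deletion replicate 3. Ube2c, the ubiquitin-conjugating enzyme of the anaphase-promoting complex, was at 0.142 and 0.256 CPM (controls) and 1.04, 1.33 and 5.8 CPM (A20 deletion) (log2 fold change 3.69, SE 1.07, edgeR adjusted p = 0.136). Birc5 (survivin, a passenger subunit) was at 0.142 and 0.321 CPM and at 1.13, 1.1 and 4.37 CPM (log2 fold change 3.17, SE 0.99, edgeR adjusted p = 0.153). In both genes the groups did not overlap, and replicates 1 and 2 lay close together below replicate 3. Aurkb, the kinase of that complex, was at 1.49 and 1.03 CPM and at 3.29, 1.65 and 4.98 CPM (edgeR adjusted p = 0.252). Cdc20, the activator of the anaphase-promoting complex, was at 0.924 and 0.962 CPM and at 1.99, 0.942 and 5.29 CPM (edgeR adjusted p = 0.315), so replicate 2 lay between the controls. The checkpoint kinase Bub1b was at 2.63 and 2.05 CPM (controls) and 4.24, 2.2 and 5.69 CPM (A20 deletion), again with replicate 2 between the controls (edgeR adjusted p = 0.398).

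In Tpx2, Cenpe, Top2a, Kif11 and Mki67, genes of the spindle and of chromosome structure, A20 deletion replicate 2 lay below the other 2 deletion libraries. Tpx2, which activates Aurora A on the spindle, was at 0.284 and 0.897 CPM (controls) and 3.55, 2.28 and 5.9 CPM (A20 deletion) (log2 fold change 2.69, SE 0.72, edgeR adjusted p = 0.116). Cenpe, a kinetochore motor, had 2 counts in both controls together, and the ratio of pooled counts was 18.7 (exact 95% interval 4.87 to 159, counting error only, edgeR adjusted p = 0.156). Its level was 1.99, 0.392 and 1.53 CPM across A20 deletion replicates 1 to 3. Top2a, the topoisomerase that untangles sister chromatids, was at 3.48 and 2.18 CPM and at 8.74, 2.59 and 8.85 CPM (log2 fold change 1.24, SE 0.58, edgeR adjusted p = 0.268). The motor Kif11 was at 0.711 and 0.962 CPM and at 2.16, 0.863 and 1.53 CPM (edgeR adjusted p = 0.477). In both genes replicate 2 lay between the controls. The proliferation marker Mki67, outside the naming rule and chosen after its values were seen, was split between libraries. It stood at 1.14 and 0.256 CPM (controls) and 3.03, 0.0785 and 2.34 CPM (A20 deletion) (edgeR adjusted p = 0.536), with replicate 2 below both controls on 1 count. The other 10 mitotic members (Ccna2, Aurka, Plk1, Cdca8, Bub1, Kif23, Nusap1, Prc1, Cenpa and Cenpf) had log2 fold changes from 0.09 (Aurka) to 1.11 (Bub1), with an SE of 0.60 to 0.91. Of these 10, only Plk1 did not overlap between the groups.

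**Figure D4:**
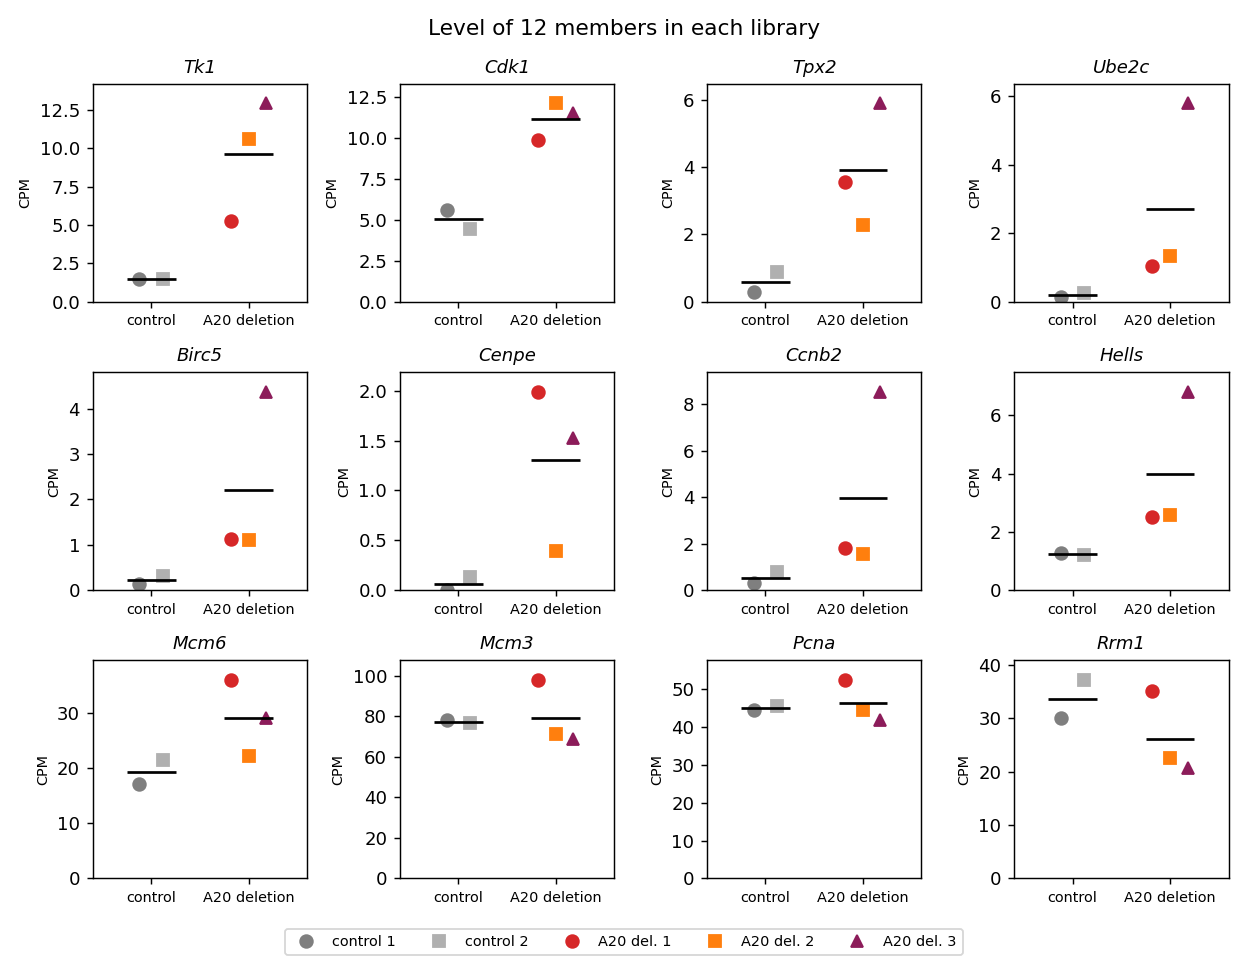
Level in CPM (vertical axes, each from 0) of 12 members in each library, with 2 controls on the left and 3 A20 deletion libraries on the right of each panel; bars are group means. Tk1 and Cdk1 are raised in all 3 deletion libraries, Ube2c, Birc5 and Ccnb2 are highest in A20 deletion replicate 3, and Mcm3, Pcna and Rrm1 overlap between the groups.

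Many members, but not all, shared an order of the deletion libraries. Tk1 and Cdk1 were lowest in replicate 1, and Mcm3, Pcna and Rrm1 in replicate 3. A20 deletion replicate 3 was the highest of the 3 for 31 of 44 members and replicate 2 for 1, while replicate 2 was the lowest for 33. Among all genes tested replicate 3 was the highest for 30.2%, replicate 2 the highest for 29.9% and replicate 2 the lowest for 28.8%. For the 23 mitotic members replicate 2 was the lowest for 19, and replicate 3 for 0. The members share libraries, so they are not independent readings of this order. Replicate 3 exceeded both controls for 23 of 23 mitotic members, replicate 1 for 20 and replicate 2 for 9. The corresponding shares of all genes tested were 45%, 36.5% and 45.4%. For the 21 S-phase members the counts were 16, 20 and 12. The mitochondrial share was 4.63% in replicate 2, which had the lowest mitotic sum of the deletion libraries. It was 3.56% in replicate 3, which had the highest, and 0.847% in replicate 1. Whether the mitotic sum depends on this share was not tested. Fitted without A20 deletion replicate 1, edgeR called 7 members higher (Birc5, Ccnb2, Cdk1, Hells, Tk1, Tpx2 and Ube2c) and Rrm1 lower, where 32.4% of all genes were called, 15.7% higher and 16.7% lower. Without replicate 2 it called 0 of 40 tested members, where 1.53% of all genes were called, 1.35% higher and 0.171% lower. At an unadjusted p under 0.05 in that edgeR fit were 16 of the 40 members, against 1600 of 11672 genes tested. DESeq2 on all libraries called 7 members higher (Birc5, Ccnb2, Cdk1, Cenpe, Tk1, Tpx2 and Ube2c) and 0 lower, where it called 9.07% of all genes, 6.08% higher and 2.99% lower.

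Each group held libraries with Xist counts (female) and libraries with Y-linked counts (male), so levels were also compared within sex, with no test. In the female pair, A20 deletion replicate 1 exceeded control replicate 1 for 44 of 44 members, with a median difference of 0.82 on the log2(CPM + 0.25) scale, against 6124 of 12240 genes and a median of 0 over all genes tested. Among the males, A20 deletion replicate 2 exceeded control replicate 2 for 28 members (median 0.10) and replicate 3 for 39 (median 0.98). Over all genes tested these counts were 6464 and 6370 of 12240, with medians of 0.04 in each. Members higher in all 3 of these ratios numbered 28 of 44 (63.6%), against 3618 of 12240 genes tested (29.6%). Rrm1 was higher by 0.22 in the female pair and differed by -0.71 and -0.83 in the male ratios. Of the 4 combinations of sex and genotype 3 held 1 library each, so a fit of their interaction took its spread from A20 deletion replicates 2 and 3 alone and assumes that the single libraries vary like these. It therefore shows neither that the sexes differed nor that they did not. That fit (edgeR) called 0 of the 41 tested members, with 2 at an unadjusted p under 0.05 (Mcm6 and Rrm1) and a smallest adjusted p of 0.0727, and 425 of all genes tested. DESeq2 was not run for this term. With sex as an additive term, Cdk1 passed beside Tk1 (edgeR adjusted p = 0.0452 and 0.0135).

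Other genes of the same machinery were read from lists that hold none of the members. Of 46 tested mitosis genes 2 rose and 0 fell, beside 2.08% and 0.507% of all genes tested. Their median log2 fold change was 0.72, and 4 had an unadjusted p under 0.05 by edgeR, against 21% of all genes tested. Smc4, a condensin subunit that compacts chromosomes, was at 6.97 and 6.28 CPM (controls) and 18.3, 19.8 and 20.4 CPM (A20 deletion) (2.94-fold, log2 fold change 1.56, SE 0.20, edgeR adjusted p = 0.0148). Kif2c, a microtubule depolymerase at centromeres, was at 1.71 and 2.82 CPM and at 7.01, 11.2 and 10.4 CPM (4.19-fold, log2 fold change 2.07, SE 0.37, edgeR adjusted p = 0.0403). In both genes the 3 deletion libraries lay together, replicate 2 included. Kif15, a spindle motor with 3 control counts, had a ratio of pooled counts of 11 (exact 95% interval 3.49 to 55.8, counting error only, edgeR adjusted p = 0.167). Neither Smc4 nor Kif2c passed without A20 deletion replicate 3 (edgeR adjusted p = 0.0657 and 0.131), and Kif2c did not pass without A20 deletion replicate 2 (0.124). Kif2c was also not called with limma-voom (adjusted p = 0.0693) or with the mitochondrial percentage as a covariate (edgeR adjusted p = 0.075). With a single control left, the log2 fold changes of Smc4 and Kif2c were 1.59 and 1.71 (control replicate 1 omitted) and 1.43 and 2.42 (control replicate 2 omitted). With A20 deletion replicates 2 and 3 omitted, they were 1.47 and 1.63.

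None of 45 tested replication genes outside the members passed (median log2 fold change 0.18, 4 at an unadjusted p under 0.05). The share at that unadjusted p was 21% over all genes tested, which is also the background for the lists that follow. The clamp loader subunit Rfc5 was at 5.05 and 6.41 CPM (controls) and 11.5, 9.03 and 10.9 CPM (A20 deletion) (edgeR adjusted p = 0.139). Rfc2 and Timeless had adjusted p of 0.209 and 0.223 by edgeR. Of 25 tested G1 cyclins, kinases and transcriptional regulators 0 passed (median -0.05, 5 at an unadjusted p under 0.05). Cyclin D2, Ccnd2, which couples growth factor signals to cell cycle entry, stood at 1.42 and 1.99 CPM and at 5.28, 5.41 and 11.1 CPM (log2 fold change 2.08, SE 0.48, edgeR adjusted p = 0.0784). The E2F family member E2f3 had 39.7 and 53.3 CPM against 26, 31.9 and 24.7 CPM (log2 fold change -0.75, SE 0.20, edgeR adjusted p = 0.118), and Lin54 had a log2 fold change of -0.66 (adjusted p = 0.158 by edgeR). Of 23 cell cycle brakes 0 passed (median 0.09, 2 at an unadjusted p under 0.05). Gadd45g was at 17.6 and 13.3 CPM and at 4.76, 10.2 and 7.42 CPM, Cdkn2a had a log2 fold change of 2.12 and Ccng2 of -0.42, with edgeR adjusted p of 0.161, 0.204 and 0.241. Of 20 DNA damage genes 0 passed (median -0.07, 2 at an unadjusted p under 0.05). Hus1, of the checkpoint clamp, was at 19.1 and 25.8 CPM and at 11.9, 12 and 13.1 CPM (edgeR adjusted p = 0.0879), and Fanca and Rad54l had adjusted p of 0.223 and 0.305 by edgeR. Over these 5 lists DESeq2 called 3 genes higher and 2 lower, where it called 6.08% of all genes higher and 2.99% lower.

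Cells other than microglia can add transcripts of dividing cells to a sort. Microglial markers were abundant, with 2 of 8 means higher in the deletion group, 1 gene called (Aif1, adjusted p = 0.0392 by edgeR) and the list summing to 44300 and 49400 CPM in the controls and 33800 to 37100 CPM in the deletion libraries, and Csf1r alone at 11400 to 16200 CPM. Markers of T and NK cells were scarce but higher in the deletion libraries: 13 of 14 had a higher deletion mean, and they summed to 0.924 and 1.6 CPM (controls) and 9.69, 6.51 and 5.69 CPM (A20 deletion). Cd3e, Cd3d, Cd3g, Trac and 6 further genes had 0 counts in the controls, where 3 counts equal 0.192 to 0.213 CPM. The sum of the 14 was highest in A20 deletion replicate 1 and lowest in replicate 3. Monocyte and border macrophage markers summed to 67.7 and 122 CPM and to 96.3 to 128 CPM, with 9 of 12 means higher and Plac8 called (log2 fold change 3.14, edgeR adjusted p = 0.00792), while Mrc1, the most abundant, overlapped. Markers of astrocytes, led by Slc1a3, summed to 148 and 219 CPM and to 173 to 325 CPM (6 of 6 means higher, Aldh1l1 called at an edgeR adjusted p = 0.0343), and those of oligodendrocytes and their precursors, led by Mbp, to 192 and 216 CPM and to 254 to 349 CPM (9 of 9 higher). Their sums were highest in A20 deletion replicates 2 and 3. B cell markers (5 of 7 means higher), led by Ighm, summed to 341 and 275 CPM and to 385 to 423 CPM, with Cd79a, Ms4a1 and Pax5 at 0 in the controls. Endothelial markers (7 of 8 higher) summed to 59.3 and 62 CPM and to 53.1 to 67.6 CPM, a sum led by Pecam1, which was at 50.5 and 53.1 CPM (controls) and 26.2, 35.2 and 28 CPM (A20 deletion). Without Pecam1 they summed to 8.74 and 8.91 CPM (controls) and 41.4, 17.9 and 26.1 CPM (A20 deletion), lowest of the deletion libraries in replicate 2. Cldn5, Flt1, Cdh5 and Ly6c1 were higher without overlap, with edgeR adjusted p from 0.178 to 0.232 and a median log2 fold change of 1.30 over the 7 tested endothelial markers. Neuronal and progenitor markers (7 of 9 higher), led by Nes, summed to 16.3 and 11.3 CPM and to 15.2 to 20.5 CPM with Eomes at 0. Neutrophil markers (2 of 8 higher) reached 18.6 CPM in control replicate 1 and 0.385 to 9.18 CPM elsewhere, with S100a9 the highest. Red blood cell markers (1 of 5 higher) ranged from 0.0711 to 23.4 CPM, with Hbb-bs the highest. The part of any of these cells in the levels of cell cycle genes was not tested.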

How the data were processed

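RNA of sorted microglia was sequenced from 10 ng per library (RNA integrity number 7 or above, per the labels' protocols). The deposited values are raw read counts per Ensembl gene. STAR 2.4.0j, featureCounts, DESeq2 1.22.1 and build GRCm38 come from the list of tools and builds per the submitters' processing notes. The sources used here state no annotation release, strand setting or multi-mapping rule, and reads of overlapping or antisense genes cannot be told apart. Exons of 13 of the 44 members overlap another GENCODE M21 gene, by 67.3% of exon length in Gins2 and 22.8% in Ube2c. Symbols and lengths came from GENCODE M21 (40340 identifiers matched, 1048 did not).

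The test was run with edgeR 4.0.16 under R 4.3.3: filterByExpr (minimum count 10, total 15), TMM scaling, the quasi-likelihood test with no covariate, and Benjamini-Hochberg adjustment over 12240 genes at 0.05. The SE is the log2 fold change divided by the square root of F and is approximate. Alternatives used DESeq2 1.42.0, limma 3.58.1 and other settings. Reads carry no molecular identifiers, so intervals cover counting error only. The procedure was tested on simulated data. The members and lists were chosen with earlier results of these data known. Named are called members, in each of 10 role groups the 2 smallest p and the highest level, and in each pathway list the 3 smallest p. In each marker list the most abundant gene is named, and Tnfaip3 as the target. Other names were chosen after their values were seen. All pairs of libraries differed by more than sampling noise (chi-square per degree of freedom 15.5 to 145).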

Additional observations from a re-analysis of the deposited data

How the results depend on the processing

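Of all genes 255 were called higher and 62 lower, of the members 1 and 0, and of the genes in the 5 other cell cycle lists 2 and 0. Without a filter on low counts these were 1048 and 653, 7 and 0, and 5 and 5. With DESeq2 they were 744 and 366, 7 and 0, and 3 and 2. With limma-voom they were 166 and 45, 0 and 0, and 1 and 0. At an adjusted p under 0.01 they were 56 and 2, 0 and 0, and 0 and 0. With a term for the libraries that hold Xist they were 563 and 261, 2 and 0, and 4 and 2. With both A20 deletion replicates 2 and 3 omitted they were 317 and 77, 0 and 0, and 1 and 1. With the mitochondrial percentage as a covariate the list counts were 1 and 1, and with the length trend removed 2 and 1. Leaving out each library in turn gave 0 to 1902 and 0 to 2021 over all genes, 0 to 7 and 0 to 1 over the members, and 0 to 8 and 0 to 16 over the lists, with all upper values without A20 deletion replicate 1. The cause of these shifts was not tested. The replicate number as a replicate block gave 228 and 32, 1 and 0, and 2 and 0. Deviations of same-numbered libraries correlated at 0.26 and 0.17 across genes, but only 2 numbers are shared, so the numbers do not show a pairing. The log2 fold change of Ccne2 changed sign to 0.01 with upper-quartile scaling, 0.08 with the replicate block, 0.05 without control replicate 2, 0.09 without A20 deletion replicate 3, 0.23 with replicates 2 and 3 omitted and 0.16 with the mitochondrial covariate. Leaving out 1 library gave -0.22 to 0.09 for Ccne2, -0.17 to 0.14 for Mcm3 and -0.09 to 0.12 for Pcna. The value of Mcm3 became 0 (rounded, below 0) with library size alone, -0.03 without control replicate 2, -0.17 without A20 deletion replicate 1 and -0.01 with the length trend removed. That of Pcna became -0.02 without control replicate 1, -0.09 without A20 deletion replicate 1 and -0.15 with the length trend removed, and that of Rrm1 became 0.07 with replicates 2 and 3 omitted. Taking the median difference of the S-phase members in place of their sum moved the log2 difference from the control mean from 0.45 to 0.70 in A20 deletion replicate 1 and from 0.29 to 0.84 in replicate 3. The median log2 fold change of the tested members ran from 0.52 to 1.12 when 1 library was left out (1.12 without A20 deletion replicate 2). Depth limits the mitotic members most: 14 of the 23 had a mean under 2 CPM.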
